A study of Mus musculus with 477 samples.

Results

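The levels of 10 epithelial junction and identity genes were followed across single mammary cells of mice with and without floxed *Brca1*: the cadherins *Cdh1* and *Cdh3*, the adhesion molecule *Epcam*, the claudins *Cldn3*, *Cldn4* and *Cldn7*, the tight junction genes *Ocln* and *Tjp1*, the splicing factor *Esrp1* and the transcription factor *Grhl2*. They were chosen by name, as junction and epithelial identity genes, with earlier results of these data known, and all 10 were found among the 21004 genes of the count table. The study loaded sorted cells into the microfluidic chambers of Fluidigm C1 chips, where full-length cDNA was made from each, and 477 cells from 11 mice were counted. Luminal cells (L) came from virgin (v) or day 12.5 pregnant (p) females aged 3 to 4 months, and tumor cells (T) came from mammary tumors of about 1 cm.

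All mice carried MMTV-Cre, a Cre recombinase driven by a mouse mammary tumor virus promoter that is active in mammary epithelium, on a mixed C57BL/6 and 129/Sv background. The Br mice were *Brca1* fl/fl, the Br53 mice were *Brca1* fl/fl with *Trp53* fl/+, and the 53 mice were *Trp53* fl/+ with no floxed *Brca1*. These alleles follow the study's methods, while *Trp53* fl/fl is written for mice of these genotypes elsewhere in the study, so the number of floxed *Trp53* alleles is uncertain. There was no group without a Cre-deleted allele. A ROSA mT/mG reporter marked cells in which Cre had acted with membrane GFP. The luminal groups were v53L (40 cells), p53L (36), vBrL (35), pBrL (71 from the mouse pBrL-1 and 38 from pBrL-2), vBr53L (39) and pBr53L (53). The tumors were BrT1 (47 cells), BrT2 (37), Br53T1 (30) and Br53T2 (51). Each group was 1 mouse except pBrL, so each tumor is a single case. Luminal cells were sorted as CD24 high, CD29 low and GFP positive, and tumor cells as CD24 positive. The sort, the age of the mice and the tissue therefore changed together between luminal mice and tumors, and their parts cannot be told apart.

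Epithelial cells hold to each other through adherens junctions, in which cadherins bind across the cell border and are anchored inside by catenins, and through tight junctions, in which claudins and occludin seal the space between neighbours. GRHL2 and ESRP1 act on the expression and splicing of many such genes in epithelia. In the mammary gland the luminal layer carries *Cdh1*, *Epcam* and the simple keratins, while *Cdh3* belongs to the basal layer, and transcription factors of the Snail, Zeb and Twist families repress *Cdh1* when epithelial cells take on mesenchymal traits.

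Total counts ran from 40338926 to 115827852 reads per mouse and from 170209 to 3550564 reads per cell. The luminal keratins *Krt8* and *Krt18* were high in every luminal mouse (1148 to 2491 and 3089 to 6014 CPM, reads per 1000000 reads, over the summed cells of a mouse). Of the genes the crosses delete, *Brca1* lay at 1.70 to 57.2 CPM in the tumors and *Trp53* at 5.05 to 140.4 CPM. In the luminal mice *Brca1* was at 6.99 and 5.21 CPM without a floxed *Brca1* (v53L, p53L), at 4.24, 2.03 and 31.8 CPM in the Br mice and at 29.9 and 31.5 CPM in the Br53 mice, so its gene-level count did not follow the genotype labels, and *Trp53* was at 92.5 to 515 CPM. The term *Brca1*-deficient below follows the genotype labels alone. Counts over a whole gene do not separate a deleted from an intact allele, so they check no label. BrT1 stood apart from the other libraries in the markers of several cell types, and results that rest on it are given with and without it.

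The genes were placed on the GRCm38 assembly, also named mm10, with the GENCODE vM21 annotation. *Cdh1* (chromosome 8, 106603351 to 106670246) and *Cdh3* (chromosome 8, 106510891 to 106557297) are neighbours 46.1 kb apart. *Cldn3* (chromosome 5, 134986214 to 134987472) and *Cldn4* (chromosome 5, 134945119 to 134946934), each of a single exon, lie 39.3 kb apart on opposite strands. The others are spread over the genome: *Epcam* on chromosome 17 (87635979 to 87651129), *Cldn7* on chromosome 11 (69964779 to 69967885), *Ocln* on chromosome 13 (100496507 to 100552718), *Tjp1* on chromosome 7 (65296165 to 65527781), *Esrp1* on chromosome 4 (11331933 to 11386783) and *Grhl2* on chromosome 15 (37233036 to 37363569). Exons of *Cldn3*, *Esrp1* and *Grhl2* overlap opposite-strand genes by 40, 127 and 169 bases. Whether the authors' counting used strand was not stated, so reads in those short overlaps could come from either gene.

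Promoter sequences are shown for 4 genes, chosen by their values: *Cldn4*, *Epcam* and *Ocln* were lost together in BrT1 while *Cldn3*, next to *Cldn4*, was not. They are RefSeq windows of GRCm38.p6, printed 5′ to 3′ from 250 bases before the annotated start to 20 bases after it. Capitals mark the letters CAGGTG, or CACCTG on the other strand, the E-box core to which Snail and Zeb factors can bind.

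Cldn3, chr5:134985964-134986233, plus strand: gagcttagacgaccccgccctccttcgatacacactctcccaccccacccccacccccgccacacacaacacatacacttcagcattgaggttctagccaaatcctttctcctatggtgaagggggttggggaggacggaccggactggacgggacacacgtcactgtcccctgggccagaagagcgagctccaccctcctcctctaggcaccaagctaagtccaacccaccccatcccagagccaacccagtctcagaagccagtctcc
Cldn4, chr5:134946915-134947184, minus strand: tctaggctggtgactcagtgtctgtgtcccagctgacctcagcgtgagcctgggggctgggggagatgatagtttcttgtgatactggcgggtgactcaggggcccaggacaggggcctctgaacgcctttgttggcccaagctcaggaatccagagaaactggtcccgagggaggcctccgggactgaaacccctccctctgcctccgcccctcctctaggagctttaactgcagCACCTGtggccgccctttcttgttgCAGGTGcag
Epcam, chr17:87635729-87635998, plus strand: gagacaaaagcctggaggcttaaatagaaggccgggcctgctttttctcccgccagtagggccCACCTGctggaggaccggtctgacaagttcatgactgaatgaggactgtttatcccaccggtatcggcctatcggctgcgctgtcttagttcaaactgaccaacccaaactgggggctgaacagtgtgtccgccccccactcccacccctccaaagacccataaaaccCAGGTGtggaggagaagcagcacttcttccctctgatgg
Ocln, chr13:100552479-100552748, minus strand: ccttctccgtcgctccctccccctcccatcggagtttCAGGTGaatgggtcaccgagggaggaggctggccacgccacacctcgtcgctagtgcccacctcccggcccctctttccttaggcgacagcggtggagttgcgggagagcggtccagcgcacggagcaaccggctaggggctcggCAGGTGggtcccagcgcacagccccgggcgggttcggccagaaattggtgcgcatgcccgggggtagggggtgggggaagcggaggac

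Windows reaching 50 bases past the start were searched for 6 of the 10 genes, some with more than 1 start, and 5 of these genes (*Epcam*, *Cldn3*, *Cldn4*, *Cldn7* and *Ocln*) held at least 1 such E-box. By window, the letters were in 6 of the 8 windows of these genes and in 20.2% of all 32851 mouse windows of that length, where the 2 *Ocln* windows overlap and share 1 match. The *Cldn4* window held them 14 bases before and 12 bases after the start. *Epcam* held them 187 and 19 bases before it, and the *Ocln* window shown 213 and 68 bases before it. *Cldn3*, not lost in BrT1, held 1 match 32 bases after the start, beyond the printed stretch. The *Tjp1* window and the *Cldn7* window starting at 69964529 held 0, although both genes were lost in BrT1. The letters AACCNGTT, the core bound by Grainyhead-like factors, and TATAAA were found in 0 of the 8 windows of these genes, against 2.09% and 13.6% of all windows. A match is a run of letters and not a measured binding site.

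Among the luminal mice, 9 of the 10 genes were expressed at steady levels and *Cdh3* was close to absent. Per length of exon, the mean levels over the 7 luminal mice were highest for *Epcam*, which codes for a homophilic adhesion molecule, at 629.8 ± 209 reads per kilobase of exon and per 1000000 reads (SD). *Cldn3*, *Cldn4*, *Cdh1* and *Cldn7* followed at 275 ± 94.9, 216 ± 95.9, 156 ± 32.4 and 111 ± 27.2. *Ocln*, *Esrp1*, *Tjp1* and *Grhl2* were lower, at 43.1 ± 14.8, 27.9 ± 11.1, 10.3 ± 2.42 and 4.48 ± 1.08. In this order *Cldn3* and *Cldn4*, *Cldn4* and *Cdh1*, and *Ocln* and *Esrp1* are pairs of neighbours that differ by about 1 SD or less. *Cdh3* came last at 0.0675 ± 0.128.

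The members varied less among luminal mice than the median gene. The highest luminal mouse exceeded the lowest by 1.81-fold for *Tjp1*, which codes for the scaffold protein ZO-1, by 1.86-fold for *Cldn7* and by 1.88-fold for *Cdh1*. *Cldn4* had the widest spread at 4.05-fold, from 156 CPM in vBrL to 632 CPM in v53L. The median of this ratio was 2.32 over the 9 members with a luminal mean of at least 10 CPM and 4.36 over all 8315 genes with such a mean, which were not matched to the members on level.

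**Figure D1:**
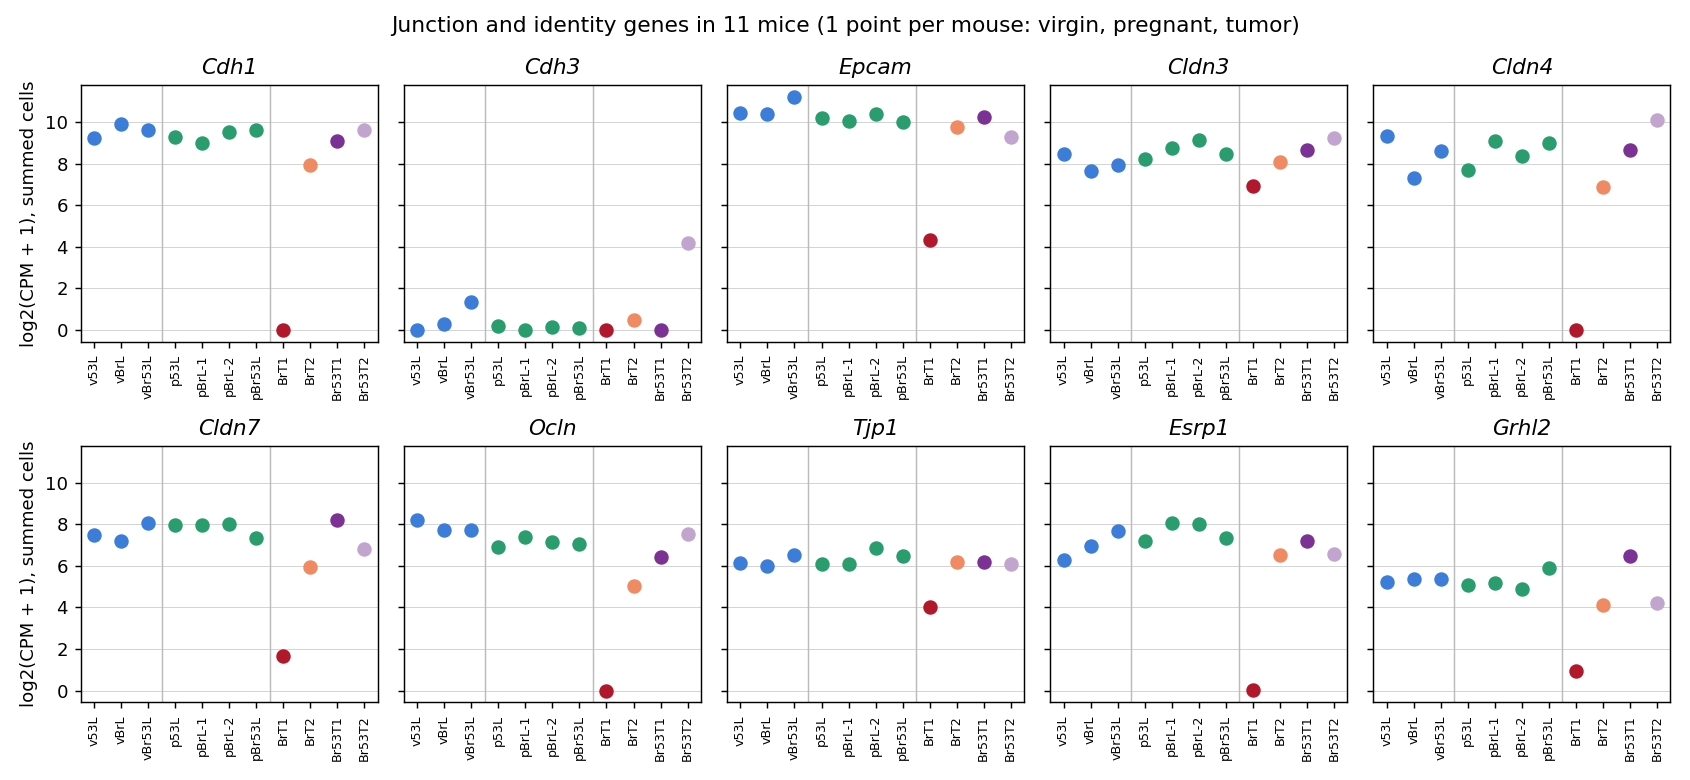
Level of each gene in each of the 11 mice, as log2 of the CPM of its summed cells plus 1; points are single mice, blue for virgin luminal, green for pregnant luminal and the last 4 for the tumors. BrT1 lies at or near 0 for *Cdh1*, *Cldn4*, *Ocln* and *Esrp1*, and Br53T2 is the only mouse with *Cdh3* above 2 CPM.

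In BrT1 nearly the whole set was lost, and in BrT2 several members were lower than in any luminal mouse. In the Br53 tumors a few expressed members lay below or above every luminal mouse. Of all genes, 14.9% (Br53T1) and 11.1% (Br53T2) lay below this range and 21.2% and 18.5% above it. Except for Br53T2 below the range, the counts of members were near these shares. A member was called lost where its CPM in a tumor was at least 4-fold below that of the lowest luminal mouse, among the 9 members with a luminal mean of at least 10 CPM, with counts under 3 reads taken as 3. BrT1 had lost 8 of the 9, against 5.77% of all 8315 genes. BrT2, Br53T1 and Br53T2 had each lost 0 of the 9, against 3.44%, 1.91% and 1.08% of all genes. These counts compare single tumors with the luminal range and carry no test. A member just inside the limit was *Tjp1* in BrT1, 4.22-fold below the lowest luminal mouse, and just outside it was *Ocln* in BrT2, 3.76-fold below.

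*Cdh1*, the gene of E-cadherin, had 0 reads among the 90582620 reads of BrT1. Its level was 244 CPM in BrT2, and the Br53 tumors had 543 CPM (Br53T1) and 782 CPM (Br53T2). The 3 virgin luminal mice had 594, 950.4 and 775 CPM (v53L, vBrL, vBr53L) and the 4 pregnant mice 628, 504, 738 and 789 CPM (p53L, pBrL-1, pBrL-2, pBr53L). Only BrT1 and BrT2 lay below the luminal range, and both Br53 tumors lay within it. Taking 3 reads as the most that a count of 0 allows, *Cdh1* in BrT1 was at least 21477-fold lower than the luminal mean. As PCR copies of a molecule are counted separately, this limit holds for reads and not for molecules.

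*Cldn4* and *Ocln*, a claudin and occludin of the tight junction strands, followed *Cdh1*. *Cldn4* had a single read in BrT1, and rates of 116 CPM in BrT2, 395 CPM in Br53T1 and, highest of all mice, 1106 CPM in Br53T2, against 156 to 632 CPM (median 390.3) in the luminal mice. The luminal mean exceeded BrT1 by a factor of 35605, with a counting interval of 6390 to 1406338 at the 95% level that covers counting error only. Br53T2 was above every luminal mouse, so the tumors lay on both sides of the luminal range. *Ocln* had 0 reads in BrT1, at least 5491-fold below the luminal mean by the same limit, which holds for reads and not for molecules. Its level was 31.7 CPM in BrT2, then 84.3 CPM in Br53T1 and 185 CPM in Br53T2, against 119 to 298 CPM (median 165) in the luminal mice. *Ocln* was thus below the luminal range in BrT1, BrT2 and Br53T1.

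*Esrp1*, an epithelial splicing factor, also had a single read in BrT1. BrT2 had 90.5 CPM of it, Br53T1 145 CPM and Br53T2 94.4 CPM, all within the luminal range of 76.1 to 267 CPM. *Epcam* was at 19.2 CPM in BrT1, 72.1-fold below the luminal mean, and 58.2% of its reads there came from 1 cell. The other tumors had 856 CPM (BrT2), 1217 CPM (Br53T1) and 611 CPM (Br53T2) of it, against 1025 to 2379 CPM (median 1325) in the luminal mice. *Cldn7* was at 2.20 CPM in BrT1, at 60 CPM in BrT2, 109.8 CPM in Br53T2 and 295 CPM in Br53T1, the last above the luminal range of 144 to 268 CPM.

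*Grhl2*, a transcription factor of epithelia, was at 0.905 CPM in BrT1, at 16.4 and 17.3 CPM in BrT2 and Br53T2, and at 88.7 CPM in Br53T1. The luminal mice had 28.4 to 57.7 CPM (median 36.5), so 3 tumors were below them and Br53T1 was above. A few cells carried much of this gene in several libraries, with 56.6% of the *Grhl2* reads of pBrL-2 and 49.7% of those of p53L in 1 cell each. *Tjp1* was at 15 CPM in BrT1 and at 67.8 to 72.2 CPM in the other 3 tumors, inside the luminal range of 63.4 to 115 CPM.

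*Cldn3* was the member that BrT1 kept. It was at 121 CPM there, 2.86-fold below the luminal mean and 1.64-fold below the lowest luminal mouse. BrT2 had 269.9 CPM, Br53T1 407 CPM and Br53T2 591 CPM. The luminal mice had 198 to 556 CPM (median 346). Its neighbour *Cldn4* had 1 read in the same BrT1 cells in which *Cldn3* had 10938.

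*Cdh3*, the gene of P-cadherin, stood apart from the others. It was at 16.9 CPM in Br53T2 and 0.401 CPM in BrT2, with 0 reads in BrT1 and Br53T1. The highest luminal mouse, vBr53L, had 1.56 CPM, all of it from 1 cell, and the other 6 had at most 0.231 CPM. Br53T2 was therefore 10.9-fold above the highest luminal mouse, and 38.3% of its *Cdh3* reads came from 1 of its cells.

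The order of loss was set by the difference from the luminal mean on the log2(CPM + 1) scale, which understates the change of low genes. In BrT1 it ran *Cdh1* (-9.45), *Cldn4* (-8.46), *Ocln* (-7.45), *Esrp1* (-7.34), *Epcam* (-6.05), *Cldn7* (-6.04), *Grhl2* (-4.35), *Tjp1* (-2.31) and *Cldn3* (-1.44). For a gene at 0 reads the difference is set by its luminal level, so the first places follow abundance as well as loss. In BrT2 it ran *Ocln* (-2.42), *Cldn7* (-1.79), *Cldn4* (-1.60), *Cdh1* (-1.51), *Grhl2* (-1.15), *Esrp1* (-0.84) and *Epcam* (-0.64), with *Cldn3* (-0.28) and *Tjp1* (-0.12) last. *Cldn3* and *Tjp1* were the least lowered of the 9 in both Br tumors. The median difference over the 9 members was -6.05 for BrT1 and -1.15 for BrT2, and -0.13 and -0.21 for Br53T1 and Br53T2. Over the 8315 genes it was 0.15, -0.04, 0.17 and 0.20.

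**Figure D2:**
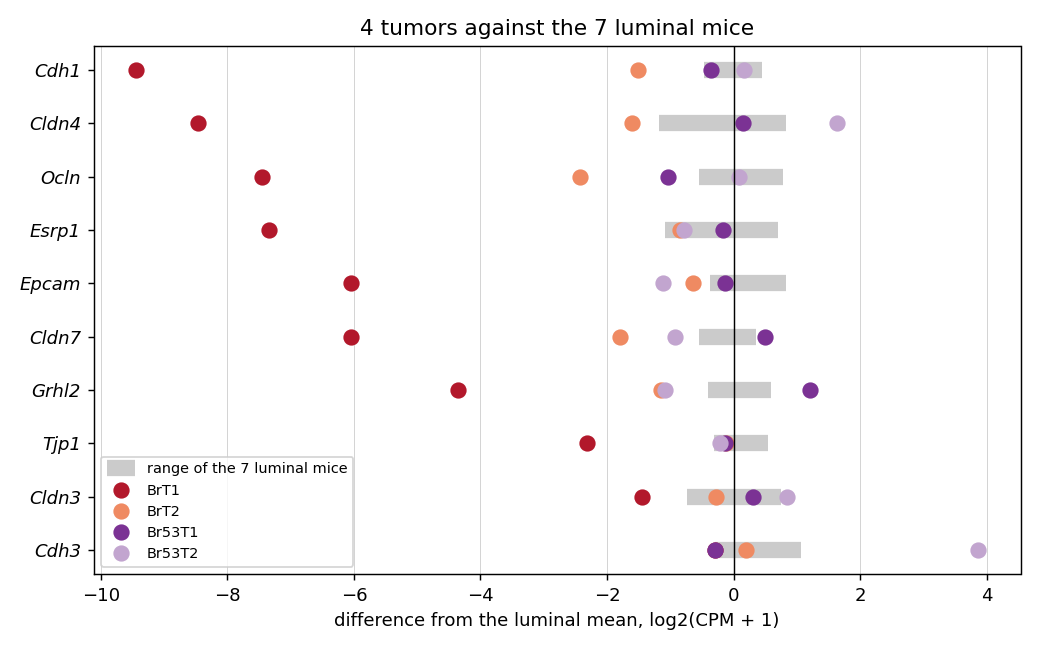
Difference of each tumor from the mean of the 7 luminal mice in log2(CPM + 1), 1 point per tumor, with grey bars for the range of the luminal mice around their mean; genes are sorted by BrT1. BrT1 lies left of every grey bar except for *Cdh3*, BrT2 for 6 genes, and Br53T2 lies right of the bar for *Cdh3*, *Cldn4* and *Cldn3*.

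BrT1 was below all luminal mice for 9 of the 9 expressed members, BrT2 for 6, Br53T2 for 3 (*Epcam*, *Cldn7*, *Grhl2*) and Br53T1 for 1 (*Ocln*), against 20.7%, 20.7%, 11.1% and 14.9% of the 8315 genes. Br53T1 was above all luminal mice for 2 of the 9 (*Cldn7*, *Grhl2*) and Br53T2 for 2 (*Cldn3*, *Cldn4*) as well as for *Cdh3*, against 21.2% and 18.5% of genes, while BrT1 and BrT2 were above for 0 of the 9, against 24.5% and 16.7%. The counts of the Br53 tumors above the luminal range, and that of Br53T1 below it, were near these shares. Br53T2 shared its C1 chip with the luminal mouse pBrL-2, the only chip to hold both tissues. Within that chip *Epcam* differed by -1.13, *Esrp1* by -1.43, *Cldn7* by -1.22, *Tjp1* by -0.75 and *Grhl2* by -0.69 on the log2(CPM + 1) scale. *Cldn4* was higher in the tumor by 1.73, *Cdh3* by 4.04 and *Ocln* by 0.39, while *Cldn3* and *Cdh1* differed by only 0.09 and 0.08.

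Tested over mice, none of these genes passed for the tumors as a class. Counts summed per mouse were compared between the 4 tumors and the 5 *Brca1*-deficient luminal mice with edgeR's quasi-likelihood test, and 0 of the 10 members had an adjusted p under 0.05, against 0.609% of 12978 genes tested. At an unadjusted p under 0.05 the count was 0 as well, against 13.8% of all genes. DESeq2 called 0 of the 9 members it tested, and limma called 0 with 3 at an unadjusted p under 0.05. The fitted log2 fold changes were below 0 for 9 members and above it for *Cdh3* (3.28 ± 2.39, SE, edgeR adjusted p 0.591). The most negative were *Esrp1* (-1.41 ± 1.20, edgeR adjusted p 0.656), *Ocln* (-1.34 ± 1.28) and *Epcam* (-1.20 ± 0.79). The median over the members was -0.87 and over all genes 0.06. Without BrT1, *Ocln* was at -0.93, *Epcam* at -0.79 and *Cdh1* at -0.67, and the values of *Cldn3* and *Cldn4* turned positive (0.12 and 0.32), with 0 members called. The sign for *Cdh3* rested on Br53T2: without that tumor its value was -1.54.

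Between the 2 Br53 tumors and the 2 Br tumors, the fitted log2 fold change was above 0 for all 10 members, with a median of 2.36 against 0.00 over all genes. No member was called by edgeR, DESeq2 or limma, and an unadjusted p under 0.05 was found for 0 in edgeR and DESeq2 and for 4 in limma. In edgeR 0% of 13477 genes passed and 3.98% had an unadjusted p under 0.05. *Cldn4* had a log2 fold change of 3.52 ± 2.63 (SE, edgeR adjusted p 1.00) and *Cdh1* one of 2.27 ± 2.72. With BrT2 left out, 6 members (*Cdh1*, *Epcam*, *Cldn4*, *Cldn7*, *Ocln*, *Esrp1*) were called for 2 Br53 tumors against BrT1 alone, whose spread was then taken to be that of the Br53 pair, as were 228 of 15223 genes. With BrT1 left out, 0 members were called, the median was 1.40 against 0.33 over all genes, and 8 of the 10 values were above 0: *Tjp1* was lower in both Br53 tumors (71.8 and 67.8 CPM) than in BrT2 (72.2 CPM), and *Epcam* was lower in Br53T2 (611 CPM) than in BrT2 (856 CPM).

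Cell by cell, few members were found in any of the BrT1 cells. Each cell was thinned to 100000 reads so that depth was equal, and a gene was counted as detected with at least 1 read. BrT1 cells held a median of 1 of the 10 members and at most 3, and 8 of the 47 cells held none. In the other 10 mice the median was 6 to 8. Br53T2 was the most mixed of these, with 10 of 51 cells at 3 members or fewer and others at all 10, while BrT2 had 3 of 37 such cells and the 7 luminal mice at most 1 each.

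**Figure D3:**
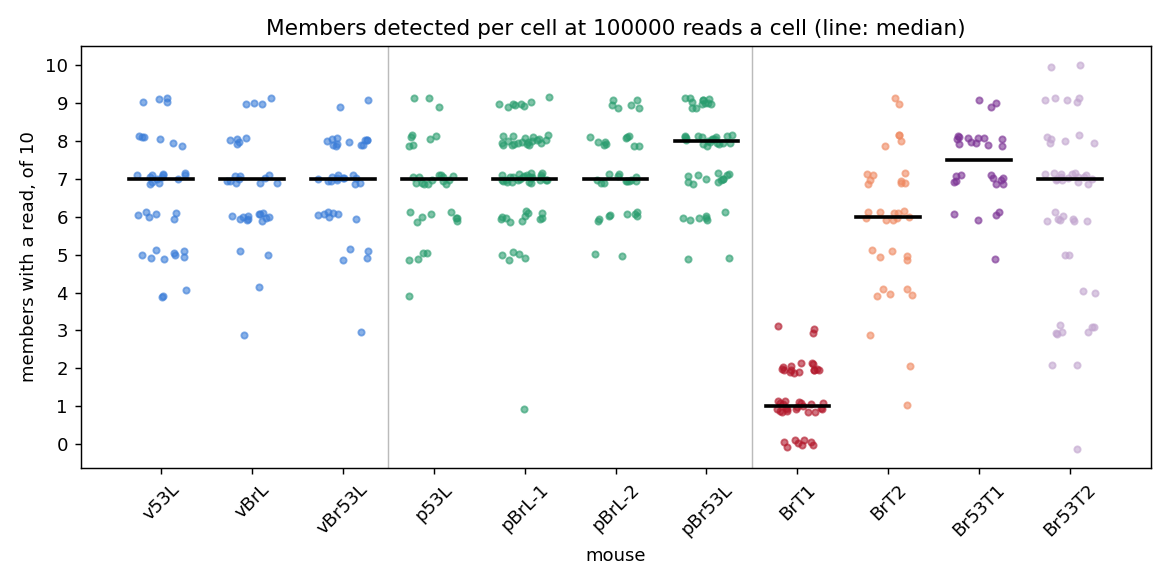
Number of the 10 members with at least 1 read in each cell after thinning to 100000 reads, 1 point per cell with a small sideways and upright shift for visibility and a line at each mouse's median. All 47 BrT1 cells lie at 3 or below, and Br53T2 spans 0 to 10.

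*Cdh1* was read in 0 of 47 BrT1 cells, which allows a share of up to 6.38% if a count of 0 is taken to allow 3 cells, and after thinning in 75.7% of BrT2, 96.7% of Br53T1 and 90.2% of Br53T2 cells. In the luminal mice the share was 92.5% to 100.0%. At full depth *Cdh1* was read in all 37 BrT2 cells, but unevenly, from 0.647 to 1560 CPM with a median of 115 CPM, where the medians of the luminal mice were 342 to 721 CPM. After thinning, *Cldn3* was read in 31 of 47 BrT1 cells (39 at full depth) and *Tjp1* in 18 (38.3%). *Epcam* was read in 7 BrT1 cells, all of which also had *Cldn3*, and *Cldn7* in 1, which had no *Epcam*. At full depth the counts were 13 and 7 cells, with a median cell at 0 CPM for both.

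Detection also set the members apart in the luminal mice. After thinning, *Epcam* was found in 98.6% to 100.0% of luminal cells, *Cdh1*, *Cldn3*, *Cldn4* and *Cldn7* in 80% to 100.0%, *Ocln*, *Tjp1* and *Esrp1* in 42.5% to 89.5%, and *Grhl2* in 19.4% to 60%. Wide ranges between cells went with this: *Ocln* in vBrL had a median cell of 10.8 CPM and a highest cell of 1931 CPM. The reads carry no molecular identifiers, so a read is not a molecule and all such intervals cover counting error only.

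**Figure D4:**
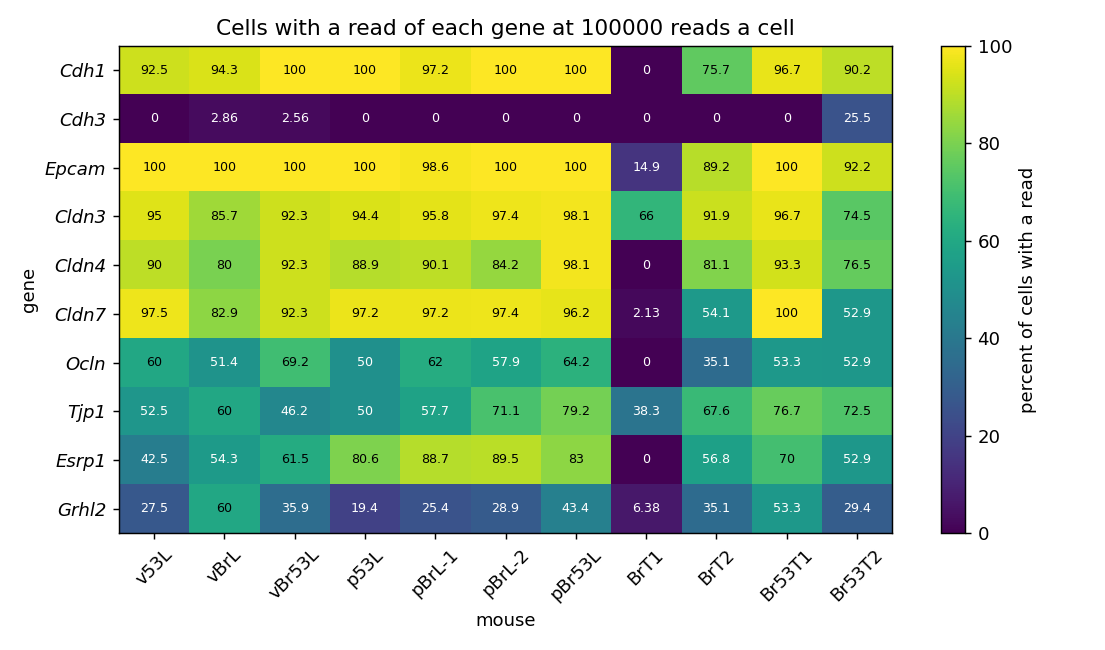
Percent of cells of each mouse with at least 1 read of each gene after thinning each cell to 100000 reads; columns are mice, rows are genes. The BrT1 column is near 0 outside *Cldn3*, *Tjp1* and *Epcam*, and *Cdh3* is found in 25.5% of Br53T2 cells.

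*Cdh3* in Br53T2 was found in 13 of 51 cells after thinning (25.5%) and in 25 at full depth. In the other mice it was found in 0 to 4 cells at full depth. Of the 13 cells, 12 had *Krt17* and 12 *Krt14*, keratins of the basal layer, and 9 had *Acta2*, the smooth muscle actin of myoepithelial cells. Among the 38 cells without *Cdh3*, *Krt17* was found in 31, *Krt14* in 23 and *Acta2* in 23. *Cldn7* was found in 3 of the 13 and in 24 of the 38, while *Epcam* was found in 12 and 35 and *Cdh1* in 10 and 36. Cells of 1 tumor are not replicates, so no test was made. The 7 basal markers listed summed to 5406 CPM in Br53T2, 24.2 to 282 CPM in the other tumors and 0 to 464 CPM in the luminal mice. All 7 were read in Br53T2, but also in Br53T1, pBrL-1, pBrL-2 and pBr53L. *Acta2* (2508 CPM) and *Krt17* (1754 CPM) were the highest in Br53T2. Of the 4 markers with a luminal mean of at least 10 CPM, 3 were above all luminal mice there, against 18.5% of all genes. The part of the basal markers in the *Cdh3* level of Br53T2 was not tested.

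BrT1 differed from the luminal mice in markers of other cell types as well. The 6 fibroblast markers summed to 4955 CPM there, against 0.117 to 712 CPM in the luminal mice and 0.140 to 96.5 CPM in the other tumors. Of this sum 4356 CPM was *Dcn*, a proteoglycan of the matrix, which was also at 176 to 711 CPM in the virgin luminal mice. In BrT1, 5 of the 6 had reads, with *Col1a2* at 466 CPM and 9499 reads of *Pdgfra*. *Col1a1* was at 20.4 CPM, *Col3a1* at 7.55 CPM and *Lum* at 0, all 3 named after their values were seen. After thinning, *Dcn* was found in all 47 BrT1 cells, *Zeb1* in 46 and *Krt8* in 40. The part of these markers in the loss of the junction genes was not tested. Immune markers summed to 1.70 CPM and endothelial markers to 3.19 CPM in BrT1, with 4 of 6 and 2 of 5 of them at 0. *Cd24a*, the gene of the sorted surface antigen, was at 335 CPM in BrT1 and 259.6 CPM in Br53T1, against 1087 to 1940 CPM in the luminal mice, and *Itgb1* (CD29) was at 377 to 602 CPM in the tumors against 133 to 308 CPM. Neither was called between tumors and luminal mice (edgeR adjusted p 0.191 and 0.117).

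The repressors of *Cdh1* and the mesenchymal cadherins, a list of 8 genes, showed no single order among the tumors. *Zeb1* was at 291 CPM in BrT1 and 21.5 CPM in BrT2 but at 0.0364 and 0.0110 CPM in the Br53 tumors, against 0 to 7.55 CPM in the luminal mice. *Zeb2* had 9106 reads in BrT1 and was at 3.45 CPM or less in the other tumors, against 0 to 4.26 CPM in the luminal mice, and *Twist1* at 49.7 CPM in BrT1, 8.88 CPM in BrT2 and 0 in both Br53 tumors. *Cdh2*, the gene of N-cadherin, was at 11.5 and 2.62 CPM in the Br tumors and at 0 and 0.154 CPM in the Br53 tumors. *Twist2* was at 1.84 CPM in BrT1 and 0 elsewhere, and *Cdh11* was at 0.144 and 0.280 CPM in the Br tumors and at 0.128 and 2.79 CPM in the Br53 tumors, both named after their values were seen. *Snai2* was at 7.22 CPM in BrT1 and 19.3 CPM in Br53T2, and at 0.0200 CPM or less in the other 2 tumors. In BrT2, *Zeb1* was found in 5 of 37 cells after thinning, 2 of them among the 28 with *Cdh1*.

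*Snai1*, which codes for the repressor Snail, was the gene of this list that passed the test. The Br tumors had 20.9 and 25.6 CPM and the Br53 tumors 30.2 and 8.85 CPM, while the 5 luminal mice with floxed *Brca1* had at most 0.0588 CPM (edgeR adjusted p 0.0216). These 5 luminal mice had 0 to 4 reads of *Snai1*, so it entered the test only through the tumors, the group where it was high. *Snai1* did not divide the tumors by their *Cdh1*, since Br53T1 had the highest *Snai1* and 543 CPM of *Cdh1*. The luminal mouse v53L had 3.54 CPM, and with all 7 luminal mice the adjusted p was 0.241. It also missed the threshold without pBrL-1 (0.0516), pBrL-2 (0.0626), pBr53L (0.0544) or BrT2 (0.0518), or against the 2 virgin *Brca1*-deficient mice alone (0.324). Of the 8 genes in the list, 5 were tested and 1 was called, against 0.609% of all 12978 genes tested. Whether any of these genes had a part in the members' levels was not tested.

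Among other junction and epithelial genes, BrT1 had lost 1 of 10 adherens junction genes, 6 of 15 tight junction genes, 4 of 8 desmosome genes and 11 of 15 epithelial regulators, against 5.77% of all 8315 genes. These lists were drawn up with results of these data known. Only genes with a luminal mean of at least 10 CPM were considered. *Nectin4*, named after its values were seen, was the adherens junction gene lost, and 4 of the 10 were below all luminal mice, against 20.7% of all genes. *Ctnna1* and *Ctnnb1*, the catenins that link cadherins to actin, were at 383 and 313 CPM in BrT1, against luminal ranges of 319 to 634 and 110.1 to 292 CPM, and *Vcl* (vinculin) was at 64.1 CPM against 113 to 250.1 CPM. *Jup* (plakoglobin), named after its values were seen, was at 72.2 CPM against 127 to 259.7 CPM.

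Among the tight junction genes lost was *Cgn* (cingulin), at 34.3 CPM against a luminal median of 323 CPM and 4.28-fold below the lowest luminal mouse, just past the limit. *F11r* (JAM-A) was at 70 CPM against 215 to 383 CPM and *Cgnl1* at 55.8 CPM against 98.7 to 206 CPM, both low but within 4-fold. *Cldn8* and *Marveld2*, named after their values were seen, had 0 reads in BrT1. Among the desmosome genes, *Dsg2* was lost, at 4.40 CPM against 249 to 704 CPM, while *Pkp4* (207 CPM against 91.4 to 161 CPM) was above the luminal range and *Perp* (71.8 CPM) within it.

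Among the regulators, *Ehf*, an epithelial ETS factor, had 0 reads there against 127 to 1115 CPM in the luminal mice, and *Spint2*, a protease inhibitor, was at 17.2 CPM against 213 to 354 CPM. *Klf4* stood above the luminal range, at 626 CPM against 138 to 472 CPM. All 4 simple keratins were lost by the same limit: *Krt18* was at 315 CPM against 3089 to 6014 CPM, *Krt8* at 178 CPM against 1148 to 2491 CPM, and *Krt19* had 0 reads.

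The other tumors lost few of the tight junction genes and keratins. BrT2 lost 1 tight junction gene (*Tjp3*) and 1 keratin (*Krt19*), Br53T1 lost 1 keratin (*Krt19*) and Br53T2 lost 1 tight junction gene (*Cldn8*), names chosen after the values were seen. In Br53T2, 4 of the 8 desmosome genes were above all luminal mice, *Pkp4* (367 CPM) and *Perp* (321 CPM) among them, against 18.5% of all genes. By edgeR, tumors against *Brca1*-deficient luminal mice gave 0 calls among 12 adherens junction, 18 tight junction, 10 desmosome, 16 regulator and 4 keratin genes tested, with median log2 fold changes of 0.19, -0.27, 0.22, -0.12 and -1.21 against 0.06 over all genes.

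**Figure D5:**
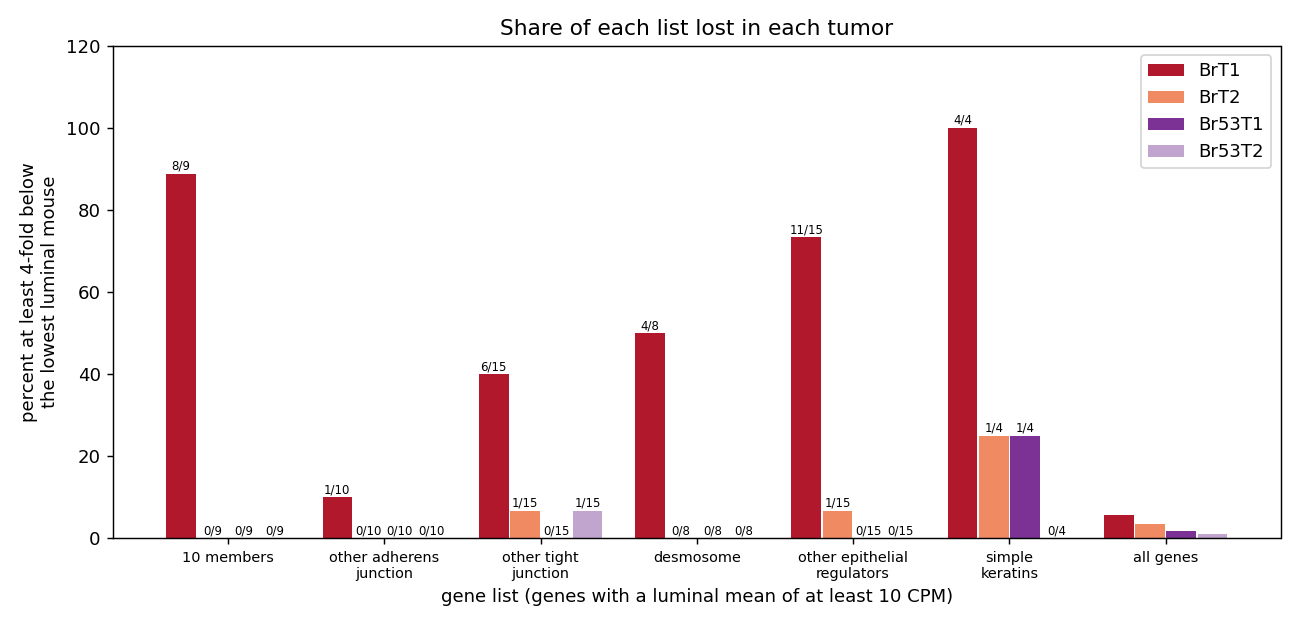
Share of each gene list that was at least 4-fold below the lowest luminal mouse in each tumor, among genes with a luminal mean of at least 10 CPM, with the lost and considered genes above the bars of each list; the last group of bars is all 8315 genes. BrT1 lost 8 of 9 members and 11 of 15 other regulators but 1 of 10 other adherens junction genes.

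Between stages no member passed the test. Virgin and day 12.5 pregnant luminal mice were compared in a fit of the 7 luminal mice with genotype as a covariate. The count of members called was 0 with edgeR, against 0.0146% of 13709 genes, and 0 with DESeq2 and limma, each of the 3 tools giving 1 member an unadjusted p under 0.05 (*Ocln* in edgeR, where 8.99% of all genes had one). *Ocln* was at 298, 208 and 209.5 CPM in the virgin mice v53L, vBrL and vBr53L and at 119, 165, 141 and 132 CPM in the pregnant mice p53L, pBrL-1, pBrL-2 and pBr53L. These 2 sets do not overlap, and how many of all genes show the same was not counted. Its log2 fold change, pregnant against virgin, was -0.73 ± 0.29 (SE, edgeR adjusted p 0.521), and within the 2 chips that held a virgin and a pregnant mouse of 1 genotype it was -0.67 and -1.32 on the log2(CPM + 1) scale.

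The values of *Cldn3* and *Esrp1* lay the other way. *Cldn3* was at 349, 198 and 243 CPM in the virgin mice and at 299, 430, 556 and 346 CPM in the pregnant mice (log2 fold change 0.64 ± 0.34, edgeR adjusted p 0.620). *Esrp1* was at 76.1, 123 and 203 CPM in virgin and at 145, 267, 256 and 162 CPM in pregnant mice (0.66 ± 0.36, edgeR adjusted p 0.627). For both the stages overlapped, and the 2 chips that held both stages differed in sign, at 0.51 and -0.22 for *Cldn3* and at -0.32 and 0.92 for *Esrp1* on the log2(CPM + 1) scale. After thinning, *Esrp1* was found in 42.5% to 61.5% of cells of the virgin mice and in 80.6% to 89.5% of cells of the pregnant mice. These shares did not overlap although its levels did, and how many of all genes show the same was not counted. At full depth the pregnant mice p53L and pBr53L had medians of 4317 and 5705 genes per cell. The virgin mice of their chips, v53L and vBr53L, had 3672 and 5028, and whether this bears on the *Esrp1* shares was not tested. The median log2 fold change over the 10 members was 0.12 and over all genes 0.14.

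Larger differences between stages were found outside the members, though not called. *Dsp*, which codes for the desmosome plaque protein desmoplakin and was named after its values were seen, was at 149.9, 90.4 and 97.3 CPM in the virgin mice and at 0.545, 3.09, 14.2 and 6.53 CPM in the pregnant mice, and its log2 fold change of -4.73 ± 1.03 was not called (edgeR adjusted p 0.224). *Dsg2* was at 447 to 704 CPM in virgin and 249 to 443 CPM in pregnant mice (edgeR adjusted p 0.436). Over the 2 groups *Dcn* also differed, at 176 to 711 CPM in virgin and 0.0260 to 25.4 CPM in pregnant mice, and its part in these values was not tested.

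No difference in these genes was detected between the genotypes of the luminal mice. In the same fit, Br against 53 and Br53 against 53 each gave 0 calls among the 10 members by edgeR, DESeq2 and limma and 0 at an unadjusted p under 0.05 in each, and 0% of all genes passed in either comparison. The fitted log2 fold changes of the 9 expressed members lay between -0.59 ± 0.67 (*Cldn4*) and 0.65 ± 0.41 (*Esrp1*) for Br and between -0.33 ± 0.38 (*Ocln*) and 0.72 ± 0.45 (*Esrp1*) for Br53. Both comparisons use the same 2 mice of the 53 genotype, which shared 1 chip.

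The genes whose pattern over the 11 mice was most like that of each member were found by the root mean square difference of centred log2(CPM + 1) values among the 8729 genes that averaged 10 CPM or more. For *Cdh1* these were *Tmc4* (0.49), *Igfbp5* (0.61) and *Rbm47* (0.67), where the median over all genes was 2.89. For *Epcam* they were the desmoglein *Dsg2* (0.47), *Celsr2* (0.50) and *Cldn7* (0.52), and for *Cldn7* *St14* (0.49), *Epcam* (0.52) and *Map7* (0.58). *Ocln* was most like *Igfbp5* (0.47) and *Tmc4* (0.55), *Cldn4* like *Tmc4* (0.81) and *Cdh1* (0.86), *Esrp1* like *Ap1m2* (0.45) and *Kcnk1* (0.49), and *Grhl2* like *Map7* (0.50) and *Notch3* (0.54). *Cldn3* and *Tjp1*, the least changed of the 9 expressed members in BrT1, were most like *Prr14* (0.33) and *Rpl32* (0.27), with medians over all genes of 1.05 and 1.12. *Cdh3* was most like *Nectin1* (0.65), against a median of 1.43. The likeness rested on BrT1: over the other 10 mice, none of the 10 members kept any of its own 3 most alike genes. There *Cdh1* was most like *Tmsb4x* (0.19), *Epcam* like *Rps9* (0.22) and *Ocln* like *Stat5a* (0.30), with medians over all genes of 0.94, 0.95 and 1.17.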

How the data were processed

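The table the authors deposited gives, for each gene and cell, an unnormalized count of reads. Per the submitters' processing notes and methods, the authors filtered reads with sickle, trimmed them with Trim Galore 0.4.1, aligned them to mm10 with STAR 2.5.3a and counted them with Subread 1.5.3, so PCR copies of a molecule are counted separately. The annotation, the use of strand and filters before deposit are not given in the sources used here. The authors looked for doublets under a microscope, and none were called again. No 2 cells held identical values.

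The mouse was the replicate. The cells of a mouse were summed, and the sums were tested in R 4.3.3 by the quasi-likelihood test of edgeR 4.0.16 (filterByExpr, TMM), with Benjamini-Hochberg adjustment over all genes tested and calls at an adjusted p under 0.05. DESeq2 1.42.0, limma 3.58.1 on log2(mean CPM over cells + 1) and other filters, scalings and sets of mice were alternatives. The script was tested on simulated data. A log2(CPM + 1) difference uses a pseudocount of 1 CPM. Exonic lengths came from GENCODE vM21. Shares of cells used counts thinned to 100000 reads, which left out 0 cells, with exact binomial (Clopper-Pearson) 95% intervals, and a count of 0 was taken to allow 3.

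Named were all members, the genes of other lists that were called, otherwise the 3 of highest mean CPM, and fixed genes (*Snai1*, *Snai2*, *Zeb1*, *Zeb2*, *Twist1*, *Cdh2*, *Krt14*, *Krt17*, *Cd24a*, *Itgb1*). Other genes of these lists are marked as named after their values were seen. Members, lists and rules were chosen with earlier results of these data known. Depth was 40338926 to 115827852 reads per mouse. A total of 1401 genes had no read in any cell. One gene of the other lists is not reported here.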

Additional observations from a re-analysis of the deposited data

Results flagged for a closer look

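Of 40 sets of values examined (10 genes in 4 groups of 4 to 7 mice), 8 held a mouse that lay far from the others on the log2(CPM + 1) scale by Dixon's test, where chance flags about 1 in 20 sets. Among the 4 tumors, BrT1 lay far below the others for *Epcam* (19.2 CPM), *Tjp1* (15 CPM) and *Esrp1* (0.0110 CPM), and Br53T2 far above them for *Cdh3* (16.9 CPM). The virgin mouse vBr53L lay far above the 7 luminal mice for *Epcam* (2379 CPM), and above both these 7 and the 5 *Brca1*-deficient mice for *Cdh3* (1.56 CPM, from 1 cell). Among the 4 pregnant luminal mice, pBr53L lay below the others for *Cldn7* (160.2 CPM).

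A gene was also flagged where the stages of the *Brca1*-deficient mice did not overlap and the 53 mice differed in the opposite direction. This held for 2 genes, and genes whose stages overlapped were not flagged even where the signs were opposite. For *Cldn3* the pregnant mouse of the 53 genotype was lower than the virgin mouse by a log2(CPM + 1) difference of -0.22, while all 3 pregnant *Brca1*-deficient mice were above both virgin ones (0.99 between the means). For *Cdh3* the 53 difference was 0.18, between 0 and 6 reads, while the *Brca1*-deficient difference was -0.76. With 1 mouse per stage in the 53 genotype, neither difference between the classes was tested.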

How the results depend on the processing

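No paired analysis was possible because the replicate numbers count cells within a group and so tie no mouse by number to a mouse of another. Chips did tie mice of the 2 stages, and with chip in place of genotype 0 members were called for pregnancy (1 residual degree of freedom). The counts of members called did not move from 0 for tumors against *Brca1*-deficient luminal mice (19 alternatives), pregnant against virgin mice (15), Br against 53 (13) and Br53 against 53 (13). For Br53 against Br tumors the count was 1 (*Cldn4*) with no filter on low counts, and 0 to 6 with 1 tumor left out, the 6 without BrT2. BrT1 had lost 8 members, or 7 at the 8-fold limit (13 alternatives), and both Br53 tumors 0 throughout. For BrT2 the count of members lost was 3 at a 2-fold limit, and 1 with the 5 *Brca1*-deficient mice as the reference, with a library size scaled by TMM, or without p53L (0 to 1 with a luminal mouse left out). Fitted signs in the tumor comparison turned in 10 of 187 refits, none called. *Cldn3* was at 0.48 against the 2 virgin *Brca1*-deficient mice, 0.12 without BrT1 and 0.01 without pBrL-2. *Cldn4* was at 0.36 against the 2 virgin mice, 0.09 with library size alone (an alternative added after seeing the data), 0.32 without BrT1, 0.18 without BrT2, 0.03 without pBrL-1 and 0.02 without pBr53L. *Cdh3* was at -1.54 without Br53T2. With 1 mouse left out, the values ran from -1.54 to 3.69 for *Cdh3*, -0.53 to 0.12 for *Cldn3* and -1.31 to 0.32 for *Cldn4*. Library size alone moved the median over all genes from 0.06 to 0.20 for tumors, from 0.12 to 0.32 for Br against 53 and from 0.08 to 0.20 for Br53 against 53. The cause of these changes was not tested. Of 220 shares of cells, 53 moved beyond their interval, mostly when 5 reads were required. With 1 mouse in most groups and 4 unlike tumors, differences between single tumors have no replicate check.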
